A study of Mus musculus with 24 samples.

Results

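Control muscles of the OSKM time course were compared between 5.5 and 8.5 days of doxycycline (Dox). The comparison takes 8 of the 24 RNA-seq libraries of the series, namely the 4 Cre- libraries of 5.5 days and the 4 Cre- libraries of 8.5 days, with muscle as a block and with 2 libraries for each muscle and day. The muscles were the extensor digitorum longus (EDL), a fast hindlimb muscle, and the soleus (SOL), a slow one, from mice 2 months old that drank water with 1 mg/ml Dox. All 8 libraries carry the label Acta1-Cre-/4Fhet, and the 2.5-day libraries were left out of the tests. 4Fhet stands for 1 copy of the Col1a1-tetO-4F cassette, a Dox-responsive OSKM cassette placed at the Col1a1 locus, together with 1 copy of ROSA26-LSL-rtTA, whose Dox-dependent activator lies behind a stop that Cre removes. Acta1-Cre is active in myofibers, so mice without it should not express OSKM, and a difference between days in them describes the background of the time course. The study used mice of both sexes, and it set aside samples without OSKM expression as outliers. The labels give no litter, collection date, hour of collection or preparation batch, so the time on Dox cannot be told apart from the mice, the batch or the hour at which each day's muscles were taken.

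Skeletal muscle is mostly myofibers, but the cells between them make most of its matrix. Fibroblasts and fibro-adipogenic cells secrete fibrillar collagens, which are hydroxylated and folded in the endoplasmic reticulum by prolyl hydroxylases and HSP47 and then crosslinked outside the cell by lysyl oxidases, while myofibers and interstitial cells together build the basement membrane of collagen IV, laminin and nidogen. Interferons act through JAK and STAT proteins to switch on antiviral effectors, and interferon gamma above all induces the guanylate-binding proteins (GBPs), the immunity-related GTPases (IRGs) and antigen presentation. Muscle also has a circadian clock, in which CLOCK or NPAS2 with BMAL1 (gene Arntl) drives Per, Cry, Dbp and Tef through E-boxes, so that a gene's level depends on the hour.

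Promoters of a few genes that stood high at 5.5 days are shown here. Igtp, Irgm1 and Gbp2 stood high in replicate 1 alone, and Ciart and Tef in both replicates. The sequences are the 250 bases before the gene start in RefSeq (GRCm38.p6), written 5′ to 3′ on the gene's strand. Capitals in Igtp, Irgm1 and Gbp2 mark matches on either strand to GAAA, any 2 bases and GAAA, the letters of the interferon-stimulated response element. In Irgm1 the capitals join 2 overlapping matches. Capitals in Ciart and Tef mark CACGTG, the E-box, and the Tef sequence belongs to 1 of 2 listed starts.
Igtp, chr11:58199306-58199555, plus strand: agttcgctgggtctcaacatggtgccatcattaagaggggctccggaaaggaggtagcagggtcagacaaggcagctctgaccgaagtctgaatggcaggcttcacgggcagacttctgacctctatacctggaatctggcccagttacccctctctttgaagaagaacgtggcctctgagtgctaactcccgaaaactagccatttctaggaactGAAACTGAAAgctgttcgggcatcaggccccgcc
Irgm1, chr11:48871421-48871670, minus strand: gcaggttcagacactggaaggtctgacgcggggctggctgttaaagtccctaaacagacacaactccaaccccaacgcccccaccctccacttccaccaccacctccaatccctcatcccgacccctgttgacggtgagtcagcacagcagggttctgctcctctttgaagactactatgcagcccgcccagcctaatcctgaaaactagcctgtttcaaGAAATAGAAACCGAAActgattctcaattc
Gbp2, chr3:142620413-142620662, plus strand: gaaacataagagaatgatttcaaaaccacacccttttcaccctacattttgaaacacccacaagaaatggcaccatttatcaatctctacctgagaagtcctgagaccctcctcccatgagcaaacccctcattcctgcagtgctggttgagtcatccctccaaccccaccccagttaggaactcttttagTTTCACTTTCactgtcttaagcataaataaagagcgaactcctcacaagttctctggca
Ciart, chr3:95882229-95882478, minus strand: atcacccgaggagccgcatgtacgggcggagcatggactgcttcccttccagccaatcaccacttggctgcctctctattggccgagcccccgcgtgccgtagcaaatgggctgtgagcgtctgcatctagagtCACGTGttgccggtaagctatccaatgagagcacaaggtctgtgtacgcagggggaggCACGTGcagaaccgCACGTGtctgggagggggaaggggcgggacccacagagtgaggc
Tef, chr15:81802423-81802672, plus strand: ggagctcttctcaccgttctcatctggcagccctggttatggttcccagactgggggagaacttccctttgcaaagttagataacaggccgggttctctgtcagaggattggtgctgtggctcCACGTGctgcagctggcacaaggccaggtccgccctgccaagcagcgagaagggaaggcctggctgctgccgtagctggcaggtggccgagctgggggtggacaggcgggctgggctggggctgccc
The interferon-stimulated letters occurred in this window for 9 of the 10 GBP and IRG genes with a RefSeq entry, against 3.46% of 27025 genes. They occurred for 14 of 35 interferon effectors and for 3 of 16 class I genes with an entry. TTCNNNGAA, the letters of a gamma-activated site, occurred for 6 of the 10, against 8.13%. CACGTG occurred for 5 of the 17 clock genes with an entry, against 6.86%. Among the 11275 genes with an entry that were tested between days the share was 9.62%. The Ciart window held 3 CACGTG matches. A match is a description of letters and not of binding.

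The libraries held between 43202264 and 54679082 counts at 5.5 days and between 36088781 and 41580104 at 8.5 days, so the deeper libraries were all on 1 side of the comparison. Fast fibre genes, slow fibre genes and oxidative phosphorylation genes passed the test in 0 of 15, 1 of 15 and 0 of 31 members, with medians of 0.12, -0.06 and 0.12 on the log2 scale. In a principal component analysis the first component, with 75.7% of the variance, separated the muscles, and the second, with 14.5%, separated the days in both muscles. All 8 libraries held Xist counts of at least 4490 and Ddx3y counts of at most 12. EDL and SOL libraries with the same replicate number and day deviated together from their group means, with correlations of 0.186 at 5.5 days and 0.213 at 8.5 days over 14794 genes, so the 4 libraries of a day may come from only 2 mice. The consensus correlation that limma estimated for the same pairs was -0.0674, of the opposite sign. The p-values measure the spread between these libraries, and an exact two-sided permutation test of 2 mice against 2 could not go below 0.333.

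The label check came out differently for the cassette and for 3 other transcripts. Pou5f1 (Oct-3/4) held 0 to 2 counts in the 4 control libraries of 5.5 days and 0 to 5 in the Cre- libraries of 2.5 and 8.5 days, against 313 to 5439 in the Cre+ libraries of those days, and Sox2 held 0 to 7 counts in the 5.5-day controls. OSKM was therefore not detectable above the level of the other controls. For 161 genes the 8 Cre+ and the 8 Cre- libraries of 2.5 and 8.5 days did not overlap and the means of log2 CPM differed by more than 1, although the gap between the nearest libraries could be small. The 5.5-day control libraries lay on the Cre+ side of the midpoint for 5 to 11 of them. All 4 lay on the Cre+ side for 4 genes, AA465934, AI450353, Gt(ROSA)26Sor and Serpina1b, and for 0 of these were all 4 inside the range of the Cre+ libraries. Serpina1b is a liver transcript and is counted in the liver group.

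AA465934 is an uncharacterised transcript on the plus strand of chromosome 11, from 83291699 to 83294637 in GRCm38 coordinates. It held 612 to 1092 counts in the 4 control libraries of 5.5 days and 11 to 26 in the other 8 Cre- libraries, whereas the Cre+ libraries held 277 to 1002 at 2.5 and 8.5 days and 446 to 666 at 5.5 days. The 5.5-day controls therefore lay on the side of the Cre+ libraries and apart from every other Cre- library. AI450353 overlaps AA465934 on the same strand, from 83293430 to 83294929, so reads of the pair may not be separable, and it held 367 to 694 counts in the 5.5-day controls against 25 to 71 in the other Cre- libraries. Gt(ROSA)26Sor, the noncoding transcript of the ROSA26 locus at chromosome 6, 113070399 to 113077244, into which the rtTA cassette was placed, showed the same order. It held 190 to 226 counts in the 5.5-day controls, 15 to 115 in the other Cre- libraries and 179 to 385 in the Cre+ libraries of 2.5 and 8.5 days. Scaled to the library total it measured 4.02 to 4.58 CPM in the 5.5-day controls, 0.361 to 2.98 in the other Cre- libraries and 4.36 to 8.05 in those Cre+ libraries, so that both 5.5-day controls numbered 1 lay just below the Cre+ range. The part that the genotype of these mice had in the values was not tested, and the groups are used here as labelled.

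**Figure D1:**
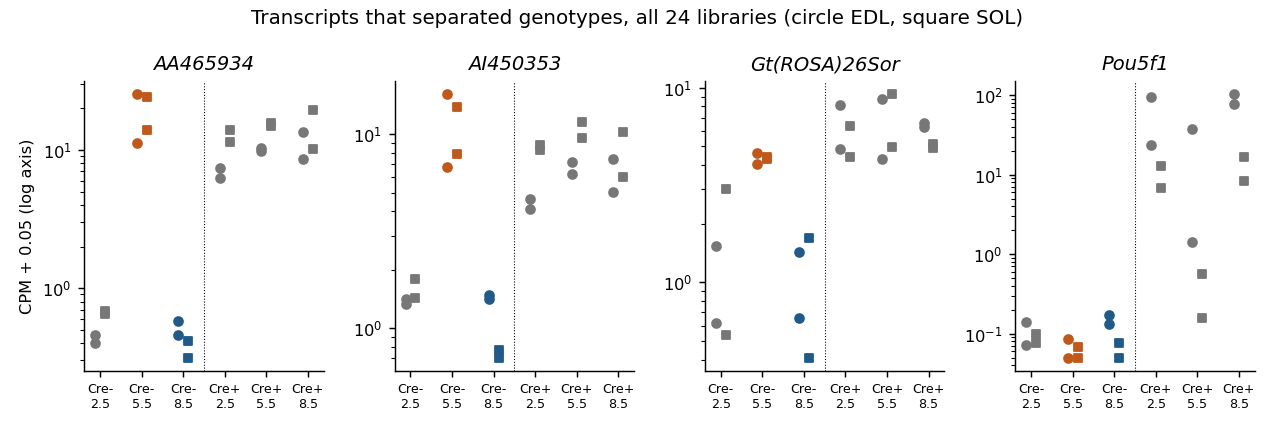
Levels of AA465934, AI450353, Gt(ROSA)26Sor and Pou5f1 in all 24 libraries, as CPM (counts scaled to the library total) plus 0.05 on a log axis, by genotype and days of Dox; circles are EDL, squares SOL, orange the 5.5-day controls, blue the 8.5-day controls and grey the rest. For the first 3 transcripts the 5.5-day controls lie above the other controls, beside the Cre+ libraries, and for Pou5f1 with the other controls.

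Which genes differed between the control muscles of the 2 days was then tested across all genes. By the quasi-likelihood test of edgeR, adjusted over all genes after Benjamini-Hochberg, 2390 of 14794 genes (16.2%) passed an adjusted p of 0.05 with an absolute log2 fold change over 0.5. Of these, 1843 (12.5%) were lower and 547 (3.7%) higher at 5.5 days, while the median over all genes was -0.00242. In EDL muscles alone 853 genes (5.77%) passed, 4.41% lower and 1.36% higher, and in SOL muscles alone 1324 (8.95%), 6.39% lower and 2.56% higher. Both libraries of 5.5 days lay below both of 8.5 days in each muscle for 27.1% of genes and above them for 7.21%. No gene passed the edgeR test of whether the day difference differed between muscles, 512 genes had an unadjusted p under 0.05, and DESeq2 called 30. With the counts of EDL and SOL of the same number and day summed, which leaves 2 against 2, 1764 genes passed. Without both muscles of the 5.5-day replicate 1 the count was 1120 and without those of replicate 2 it was 912. In the Cre+ muscles of the same days, which this comparison did not use and in which Pou5f1 held only 4 to 1686 counts at 5.5 days, 3024 of 14990 genes (20.2%) passed, 1904 of them lower (12.7%) and 1120 higher (7.47%) at 5.5 days.

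**Figure D2:**
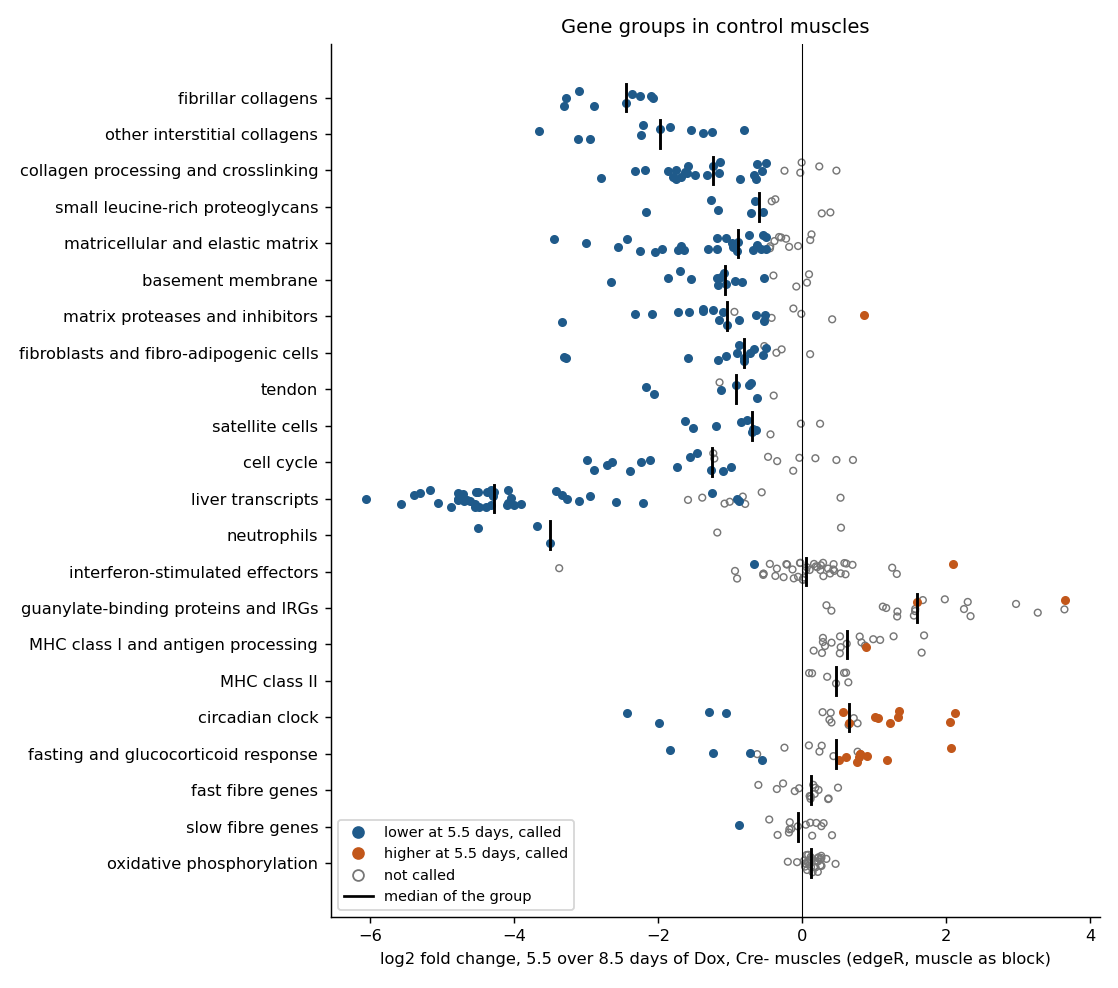
Log2 fold change of 5.5 over 8.5 days for the members of 22 gene groups in Cre- muscles; filled points passed the test (blue lower, orange higher at 5.5 days), open points did not, and the black bar is the median of the group. The collagen groups lie wholly to the left, the liver group lies farthest left, the GBP and IRG group lies to the right with 2 filled points, and the clock group is split.

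Matrix genes were the broadest group that was lower at 5.5 days. All 9 fibrillar collagens fell, against a background of 12.5% of genes, and their median log2 fold change was -2.44. All 9 also fell within EDL, against 4.41% of genes, and within SOL, against 6.39%. In all 9 the 5.5-day libraries lay below those of 8.5 days in each muscle without overlap, against 27.1% of genes. Their summed level was 83.7 to 166 FPKM in the 4 libraries of 5.5 days and 912 to 1341 in the 4 of 8.5 days. FPKM here are counts scaled to exon length and to the total count of the library, and the p-values come from the counts. The 3 most abundant members were the genes of the type I and type III collagen chains, the main fibres of interstitial connective tissue.

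Col1a1 measured 53.5 and 20.1 FPKM in EDL muscles and 48.9 and 25.1 in SOL muscles at 5.5 days. At 8.5 days it measured 325 and 489 in EDL and 457 and 286 in SOL. No library of 1 day reached those of the other, and the log2 fold change was -3.28 ± 0.36 (SE, n = 4 libraries a day, edgeR adjusted p = 0.00051). The second chain of type I collagen, Col1a2, went from 439.8 and 614 FPKM in EDL and 604 and 364 in SOL at 8.5 days to 81.2, 42.7, 78.5 and 48.2 at 5.5 days, with a log2 fold change of -2.89 ± 0.28. Col3a1 was 9.95 times lower in the fit, at 14.7 and 9.65 FPKM in EDL and 16.5 and 15.8 in SOL at 5.5 days against 118, 153, 167 and 178 at 8.5 days (edgeR adjusted p = 2.1e-05). Within 5.5 days, replicate 1 held more of both type I chains than replicate 2 in each muscle, and the smallest gap between days was still larger than that. Col2a1, the cartilage collagen, also fell (-3.10), from 1.72 to 3.91 FPKM at 8.5 days to at most 0.383 at 5.5 days.

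All 11 other interstitial collagens fell as well, against 12.5% of all genes, with a median of -1.98. Collagen VI forms microfibrils around myofibers, and its chain genes Col6a1, Col6a2 and Col6a6 fell by 2.22, 2.94 and 3.11 on the log2 scale. Col6a5 had the largest value, -3.65, but EDL replicate 2 of 8.5 days measured 4.94 FPKM against 0.323 to 0.595 in the other 8.5-day libraries. Without that library Col6a5 had -2.31 and did not pass, nor did it pass without the pair of either replicate number of 5.5 days. Col22a1, a collagen of the muscle-tendon junction, had the smallest change (-0.81) and was higher in SOL than in EDL on both days.

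Of the 27 genes that process and crosslink collagen, 22 fell, against 12.5% of all genes, and none rose, with a median of -1.24. Serpinh1, which encodes the collagen chaperone HSP47, measured 18 to 30.7 FPKM at 5.5 days and 56.4 to 109.6 at 8.5 days. Loxl2, a lysyl oxidase, fell by 2.80 with values of 1.05 to 2.19 against 9.78 to 16.4 FPKM, and the prolyl hydroxylase subunit P4ha3 fell by 2.18. Sparc, a collagen-binding glycoprotein and the most abundant of these genes, fell from 644 to 872 FPKM to 92 to 174 (log2 fold change -2.32 ± 0.22, edgeR adjusted p = 0.00029). Ppib, the cyclophilin of the same secretory step, changed least among the abundant members (-0.64). Plod1, Plod3, Pcolce2, P4ha2 and Tmem38b did not pass.

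The proteoglycans that coat collagen fibrils changed less. Of 10 small leucine-rich proteoglycans 6 fell, against 12.5% of all genes, with a median of -0.60. Decorin (Dcn) was the most abundant, at 223 to 308 FPKM at 5.5 days and 348 to 554 at 8.5 days, and its fold change of -0.54 was near the limit. Kera (-2.17), Bgn (-1.27), Lum (-1.17) and Fmod (-0.72) fell, whereas Prelp was at 0.39 and did not pass. Without the replicate 2 pair of 5.5 days 3 members passed.

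Among 35 matricellular and elastic matrix genes 25 fell, against 12.5% of all genes, none rose, and the median was -0.90. Without the replicate 2 pair of 5.5 days 15 passed. The fibrillins that scaffold elastic microfibrils had the largest changes. Fbn1 measured 2.76 and 1.85 FPKM in EDL and 2.99 and 3.19 in SOL at 5.5 days, against 16.4, 24.2, 23.2 and 31.2 at 8.5 days (log2 fold change -3.00 ± 0.17, edgeR adjusted p = 7.2e-05). Fbn2, the fibrillin of developing tissue, fell by 3.45 from at most 0.612 FPKM. Postn (periostin), a matricellular protein of growing and healing tissue, fell by 2.56, and its level in SOL was above that in EDL on both days. Thbs4 (-0.63) and Igfbp5 (-0.54) passed narrowly, and Sparcl1 (-0.39) did not pass the fold limit.

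The basement membrane genes were lower at 5.5 days in most members, and the laminin beta chain gene Lamb2 was among those that did not pass. Of 16 tested genes 12 fell, against 12.5% of all genes, with a median of -1.07. Col15a1, a collagen that anchors the basement membrane, fell by 2.65 from 14.4 to 29.8 FPKM to 2.4 to 4.33, and Col4a1 and Col4a2, the 2 chains of the collagen IV network, fell by 1.86 and 1.70. Lamb2, the most abundant member, overlapped between the days, at 41.8 to 59.7 FPKM at 5.5 days and 35 to 70.4 at 8.5 days (-0.08, edgeR adjusted p = 0.71). Agrn and Lama5 likewise had values of 0.09 and 0.07.

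Enzymes that cut the matrix were mostly lower at 5.5 days as well. Of 21 matrix proteases and inhibitors 15 fell and 1 rose, against 12.5% lower and 3.7% higher among all genes. Mmp2, a gelatinase, fell by 1.05 and Adamts12 by 2.33. Timp1, an inhibitor of these enzymes, fell by 2.09. Adamts4, an aggrecanase, had -3.34, but it held 2 to 25 counts at 5.5 days and 69 to 114 at 8.5 days. It met the minimum count mainly through the 8.5-day libraries, so its call supports no difference. Timp2 fell by 0.64, Timp3 had 0.42 and did not pass, and Timp4 rose by 0.86.

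**Figure D3:**
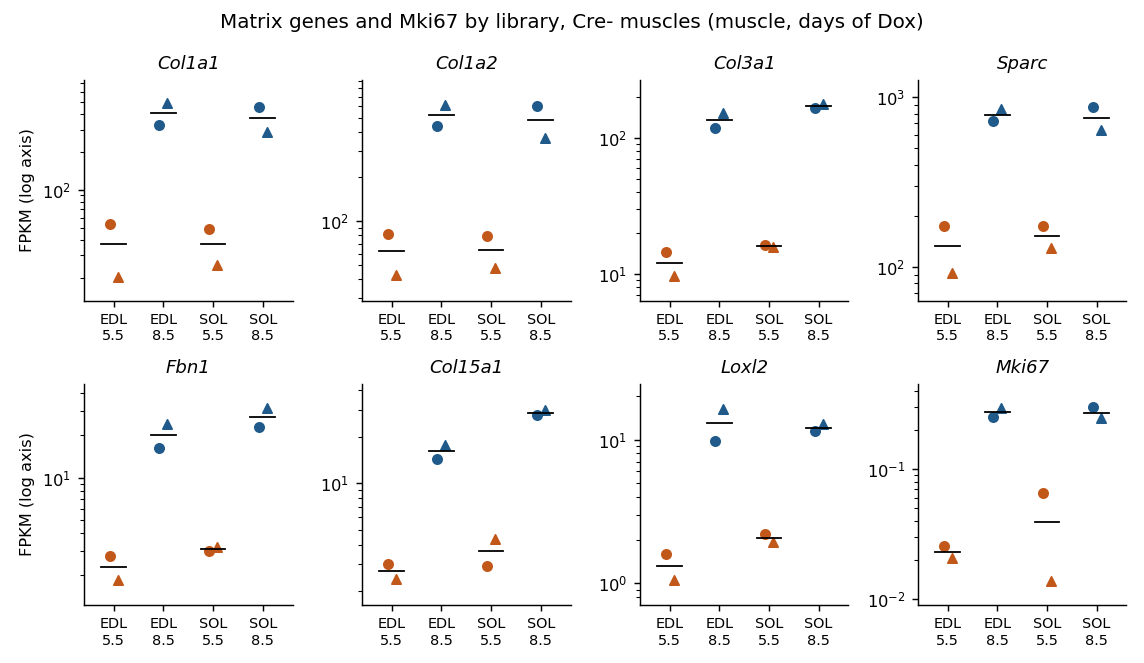
FPKM on a log axis of 7 matrix genes and Mki67 in each Cre- library, by muscle and days of Dox; circles are replicate 1, triangles replicate 2, and the line is the mean of the 2. In every panel both libraries of 5.5 days lie below both of 8.5 days in each muscle, for Col3a1 at 9.65 to 16.5 against 118 to 178 FPKM.

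The cells that make this matrix were read through their markers. Of 17 tested fibroblast and fibro-adipogenic markers 13 fell, against 12.5% of all genes, with a median of -0.80. Of the 17, 6 are also in the matrix groups above. With either replicate pair of 5.5 days left out 8 passed. Among those that encode no matrix, the surface markers Thy1 (-1.58), Cd34 (-0.81) and Pdgfra (-0.68) fell, while Pdgfrb (-0.29) and Ly6a (0.11) did not pass. Thy1 measured 4.16 to 5.64 FPKM at 5.5 days and 12.9 to 18.5 at 8.5 days. In bulk muscle, fewer cells of a type and less RNA per cell cannot be told apart, and the part that tissue composition had in the matrix result was not tested.

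Tendon markers moved in the same direction. Of 9 tested, 7 fell, against 12.5% of all genes. Among them Tnmd (tenomodulin), a marker of mature tenocytes, fell from 68.5 to 90.4 FPKM to 11.1 to 25.2 (-2.06). Mkx, a tendon transcription factor, fell by 1.13. Scx, the factor that specifies tendon, fell by 0.92. The summed tendon markers were 277 to 407 FPKM at 5.5 days and 569.5 to 828 at 8.5 days, and their part in the matrix result was not tested. Fmod, Thbs4, Kera and Comp are also counted in the matrix groups, and 4 and 3 members passed without the replicate 1 and replicate 2 pair of 5.5 days.

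Satellite cell markers were lower at 5.5 days in 8 of 11 genes, against 12.5% of all genes, with a median of -0.69. Calcr, a quiescence receptor of these cells, fell by 1.63, Chrdl2 by 1.52 and Megf10 by 1.19. Pax7, the transcription factor that defines them, measured 0.669 and 0.565 FPKM in EDL and 1.06 and 1.13 in SOL at 5.5 days, against 0.955, 0.888, 2.13 and 2.14 at 8.5 days (log2 fold change -0.64). The 3 that did not pass were Sdc4 (-0.44), Cdh15 (-0.02) and Myod1 (0.25). Without both muscles of replicate 1, or of replicate 2, of 5.5 days 3 members passed.

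Proliferation genes were low in all of these muscles. Of 22 cell cycle genes 13 were called lower and 0 higher, with a median of -1.25, but 11 of the 22 had fewer than 10 counts in at least 1 library, and some, such as Bub1, passed the filter on low counts only through the 8.5-day libraries. The count and the median therefore describe the group and support no difference. Mki67 held 6 to 35 counts in the 5.5-day libraries and 92 to 124 in the 8.5-day libraries (-2.99), and Top2a, the topoisomerase of dividing cells, held 3 to 35 and 43 to 92 (-2.89). Bub1 held at most 2 counts at 5.5 days and 1 to 12 at 8.5 days, which is too few for a fold. Replication genes with other uses, such as Pcna (-0.04) and Mcm3 (0.18), did not pass. Without the replicate 1 pair of 5.5 days 7 members passed, without the replicate 2 pair 5 and without the replicate 2 pair of 8.5 days 8. With at least 10 counts required in every library 3 of 11 passed.

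Some genes of growing muscle and imprinted growth genes followed. Mest, an imprinted gene of growing mesoderm, measured 0.533 to 0.734 FPKM at 5.5 days and 3.17 to 6.84 at 8.5 days (log2 fold change -2.75 ± 0.16), and it was named after its value was seen. Plagl1 (-1.62) and Dlk1 (-1.42) fell too, and 10 of 16 imprinted growth genes fell in a list written after Mest was noticed, and 6 and 5 without the replicate 1 and replicate 2 pair of 5.5 days. H19 did not pass (-0.38). Of 12 developing muscle genes 4 fell, against 12.5% of all genes. With either replicate pair of 5.5 days left out 2 fell, and without the replicate 1 pair of 8.5 days 7 fell. Tmem8c (myomaker, the fusion protein) was among the 4 (-1.91), with 5 to 9 counts at 5.5 days and 12 to 53 at 8.5 days. It met the minimum count only through the 8.5-day libraries, so its call supports no difference. Actc1, the cardiac actin of fetal muscle, measured 52.4 and 44.2 FPKM in EDL and 14.7 and 16.5 in SOL at 5.5 days against 313, 114, 73.7 and 53.7 at 8.5 days (-1.96). In Cre+ muscles Actc1 had 0.05 with an edgeR adjusted p of 0.95.

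Matrix genes were lower at 5.5 days in the Cre+ mice of the same days too. Pou5f1 held 4 to 1686 counts in the Cre+ libraries of 5.5 days and 414 to 5439 in those of 8.5 days. The OSKM level thus differed between these days, and the Cre+ values are no replicate of the control comparison. All 9 fibrillar collagens and 9 of the 11 other collagens were lower at 5.5 days there, with medians of -2.14 and -1.41, and Col3a1, Fbn1 and Sparc fell by 2.42, 2.37 and 1.68. The Cre+ counts for collagen processing, basement membrane and cell cycle genes were 19 of 27, 11 of 16 and 14 of 22, against 12.7% of all genes. Cell cycle genes were low there too, with Bub1 at 0 to 0.0184 FPKM at 5.5 days, so their count supports no difference. For AA465934, AI450353 and Gt(ROSA)26Sor the Cre+ values were 0.14, 0.40 and 0.42, none of which passed, against 5.71, 3.59 and 2.24 in the controls.

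Few interferon effectors passed between the days. Of 44 tested effectors 1 rose and 1 fell, against 3.7% higher and 12.5% lower among all genes, and the median was 0.06. Ifitm3 and Ifi27, the most abundant, overlapped between days, at 45.9 to 77.4 against 55.2 to 84.5 FPKM for Ifitm3. Ifit3b, an antiviral tetratricopeptide protein, was the member that rose (2.09), and Slfn5 (-0.67) the member that fell, and without the replicate 2 pair of 5.5 days 4 passed. Of 25 sensing and signalling genes 3 fell, a share near the 12.5% of all genes, namely the adaptor Tmem173 (STING, -1.06), the receptor chain Ifnar2 (-0.54) and the feedback inhibitor Socs3 (-0.52), while Mavs (0.14), Ifngr2 (0.03) and Jak1 (0.02) did not pass. Without SOL replicate 1, EDL replicate 2 or the replicate 1 pair of 8.5 days 1 of these genes passed, and without the replicate 2 pair of 5.5 days 5 were higher and 1 lower.

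The GBP and IRG genes were high in the 5.5-day libraries numbered 1. Their summed level was 199 FPKM in EDL and 1153 in SOL of replicate 1 at 5.5 days, 36 and 51.6 in replicate 2, and 35.3 to 64.4 in the 4 libraries of 8.5 days. The high values belonged to the replicate 1 pair alone, and they were higher in its SOL than in its EDL muscle. Of the 19 genes 2 passed, Igtp and Gbp5, both higher, against 3.7% of all genes higher, with a median of 1.59 over the group. Without both muscles of replicate 1 of 5.5 days 0 passed and the median was -0.225, and without both of replicate 2 17 passed and the median was 2.49. DESeq2 called 6, edgeR without a filter on low counts 8, the fit of all 24 libraries 13, and summed muscles 0.

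Igtp (IRGM3), an IRG that guards vacuoles against pathogens, measured 54.8 FPKM in EDL and 305 in SOL of replicate 1 at 5.5 days. Replicate 2 measured 6.41 and 6.19, and the 8.5-day libraries 5.86, 4.69, 9.57 and 3.99. Its fold change of 3.66 ± 1.12 (edgeR adjusted p = 0.042) therefore described replicate 1, and over the alternatives tried its adjusted p ranged from 0.0066 to 0.73. Irgm1, a regulator of the other IRGs, measured 29.7 and 191 FPKM in replicate 1 and at most 10.8 elsewhere, and Iigp1, an effector that disrupts vacuoles, 18.1 and 221 against at most 6.54. Neither passed (edgeR adjusted p = 0.077 and 0.082). Gbp2, a guanylate-binding protein, measured 11.7 and 37.2 against at most 7.5. Gbp5, which promotes inflammasome activity, was higher in both 5.5-day replicates of each muscle, at 1.45 to 7.11 FPKM against 0.786 to 1.77 (1.59, edgeR adjusted p = 0.029).

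Antigen presentation followed the same library. The summed class I genes were 1489 FPKM in SOL of replicate 1 at 5.5 days and 421 to 729 in the other 7 libraries, and 1 of 19 passed, H2-T22 (0.88), against 6 without the replicate 2 pair of 5.5 days and 0 without that of 8.5 days. B2m, the light chain of class I molecules, measured 447 FPKM in that library and 93.1 to 193 elsewhere, and H2-K1 201 against 60.7 to 92.6. No class II gene passed of the 7, whereas on summed muscles edgeR called 1 higher and DESeq2 3. Cd74, the invariant chain, measured 121 in that library and 45.8 to 85.7 elsewhere. In Cre+ muscles 17 of 46 interferon effectors were lower at 5.5 days, against 12.7% of all genes there, with a median of -0.75. Of 18 GBP and IRG genes 0 passed there, and the OSKM level differed between these days in Cre+ mice. Markers of infiltrating cells stood high in the same SOL library within its day. The summed lymphocyte markers were 5.34 FPKM there and 1.82 to 3.17 in the other 7 libraries, and the summed class II genes were 329 FPKM there and 121 to 202 elsewhere. The summed macrophage markers were 146 FPKM there, 84.6 to 122 in the other 5.5-day libraries and 133 to 176 at 8.5 days, and 4 of 16 fell while none rose. Their part in the interferon values was not tested.

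**Figure D4:**
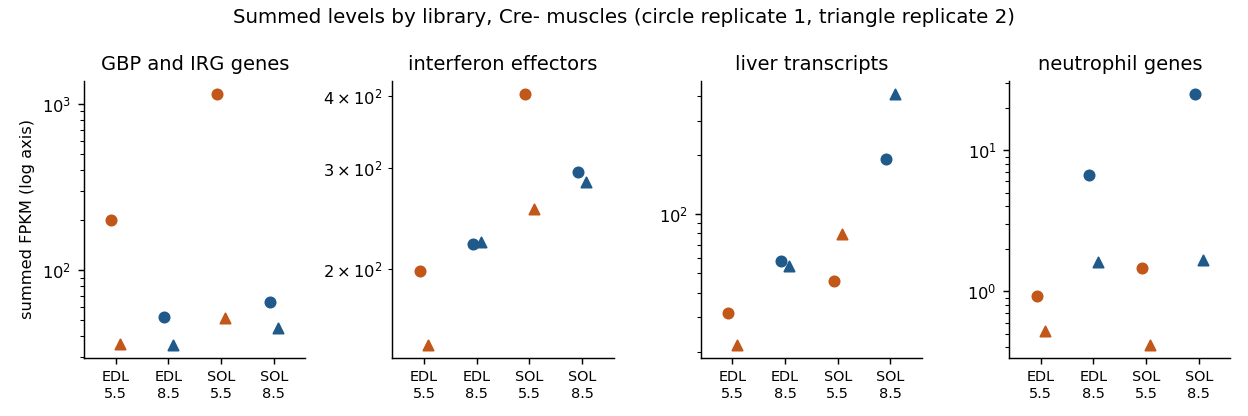
Summed FPKM on a log axis of 4 gene groups in each Cre- library, by muscle and days of Dox; circles are replicate 1, triangles replicate 2. The GBP and IRG genes peak at 1153 in SOL replicate 1 of 5.5 days, the liver transcripts at 411 in SOL replicate 2 of 8.5 days and the neutrophil genes at 25.1 in SOL replicate 1 of 8.5 days.

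Liver-type transcripts were higher at 8.5 days, above all in SOL muscles. Their summed level was 191.7 and 411 FPKM in SOL and 57.7 and 54.7 in EDL at 8.5 days, against 46.1 and 79.7 in SOL and 31.3 and 21.6 in EDL at 5.5 days. The days did not overlap within either muscle. Alb (albumin), the main secreted protein of hepatocytes, held 58, 122, 15 and 28 counts in the 5.5-day libraries and 180, 501, 312 and 3719 in the 8.5-day libraries, the last being SOL replicate 2. Its log2 fold change was -4.11 ± 0.74 (edgeR adjusted p = 0.0049).

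Of the 68 liver genes 50 passed the filter on low counts and 42 fell, with a median of -4.29. With at least 10 counts required in every library 9 were left and 4 of them passed. Most of the 50 therefore rested on the 8.5-day libraries, and the count and the median describe the group and support no difference. With 6 genes that held at most 3 counts in each 5.5-day library set at a limit of 3 counts, the median was -4.10. Fabp1, the liver fatty acid binding protein, held 1 to 9 counts at 5.5 days and 23 to 372 at 8.5 days, and Serpina3k, a secreted protease inhibitor, 3 to 34 and 73 to 991. Mup20, a urinary pheromone carrier, held 0 to 2 and 6 to 291 counts, but the major urinary proteins and the Serpina1 genes are near-identical copies whose reads are uncertain, and so is Gm2083, which has several copies. Liver genes that muscle tissue also uses changed less, such as the transferrin gene Trf (-0.91), the vitronectin gene Vtn (-0.87) and the haptoglobin gene Hp (-0.79, edgeR adjusted p = 0.32).

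The liver count depended on the libraries used. Without SOL replicate 2 of 8.5 days 38 genes passed and the median was -3.02. Without the replicate 1 pair of 5.5 days 26 passed and without the replicate 2 pair 14, with medians of -5.38 and -3.58. In EDL alone 2 fell and in SOL alone 40. In Cre+ muscles 3 of 19 liver genes were lower at 5.5 days, a share near the 12.7% of all genes lower there, and Alb had 0.24. Kidney and pancreas genes had 1 tested member, Cela1 (-1.27), which did not pass, and of 3 tested keratinocyte genes Trp63 rose (0.60), which did not pass when any 5.5-day library was left out.

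Neutrophil genes were high in the replicate 1 pair of 8.5 days. S100a9, a calcium-binding protein that neutrophils carry in bulk, measured 3.63 FPKM in EDL and 13 in SOL of that number, 0.604 and 0.788 in replicate 2, and 0.133 to 0.397 at 5.5 days. S100a8, its partner, measured 2.15 and 8.70 against at most 0.624 elsewhere. Of 11 listed genes 5 passed the filter on low counts. The 3 called members, S100a8, S100a9 and Ngp, reached the minimum count mainly in the 8.5-day libraries, so these calls support no difference, and 0 were called without the replicate 1 pair of 8.5 days, with either pair of 5.5 days left out, by limma-voom or by edgeR on summed muscles. Ngp held at most 1 count at 5.5 days and 1 to 36 at 8.5 days.

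Other resident cells were read through their markers as well. Of 13 endothelial genes 2 fell, a share near the 12.5% of all genes, the receptors Kdr (-1.12) and Tek (-0.55), while Egfl7, the most abundant, did not pass (-0.02). Without SOL replicate 1 of 5.5 days or EDL replicate 1 of 8.5 days 1 passed, and with library size alone 4 did. The 4 macrophage markers that fell were Mrc1 (-0.98), Adgre1 (-0.98), Csf1r (-0.72) and Cx3cr1 (-1.47), and 1 passed with either replicate pair of 5.5 days left out. Of 10 smooth muscle genes 3 fell, including Acta2 (-0.83) and Tagln (-0.70), and 1 rose, Des (0.63), the intermediate filament protein that myofibers also make. Without SOL replicate 1 of 5.5 days 1 fell and 1 rose, and without the replicate 1 or replicate 2 pair of 5.5 days or the replicate 2 pair of 8.5 days 0 fell and 1 rose. None of 10 Schwann cell genes, of which Pmp22 was the most abundant (-0.30), and none of 10 erythroid genes passed, among which the globin copies share reads and are uncertain (Hbb-b1, -0.20). Without EDL replicate 2 of 5.5 days, which measured 339 FPKM of Hbb-b1 against 119 to 260 elsewhere, 4 erythroid genes were lower at 5.5 days, with Hbb-b1 at -0.61. Among 11 adipocyte genes 1 rose, Plin4 (0.74), a lipid droplet protein, and Car3 did not pass (0.23). Of 7 tested lymphocyte genes 1 was called, the B cell gene Cd79a, which held 1 to 4 counts at 5.5 days and 5 to 16 at 8.5 days and so passed the filter only through the 8.5-day libraries. The call supports no difference, and without SOL replicate 2 of 5.5 days 2 lymphocyte genes were called higher and 0 lower.

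Clock genes moved in both directions. Of 20 genes 9 rose and 4 fell, against 3.7% higher and 12.5% lower among all genes. The 4 that fell were the activators Npas2 (-2.44), Arntl (-1.99) and Clock (-1.06) and the repressor Nr1d1 (-1.30), which encodes REV-ERB alpha. The 9 that rose were the repressors Per2 (2.05), Per3 (1.34), Cry2 (1.22) and Cry1 (0.65), the clock-controlled transcription factors Hlf (1.33), Tef (1.05) and Dbp (1.01), the repressor Ciart (2.12) and the receptor Rora (0.57). Per1 (0.77) did not pass. Without the replicate 2 pair of 5.5 days 8 clock genes passed.

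Arntl measured 2.75 and 2.54 FPKM in EDL and 1.5 and 1.65 in SOL at 5.5 days, against 8.37, 5.38, 12.4 and 11 at 8.5 days. Npas2, its alternative partner, measured 0.106 to 0.194 FPKM at 5.5 days and 0.476 to 1.5 at 8.5 days (edgeR adjusted p = 0.00076). These groups did not overlap. Per2 measured 6.83, 5.01, 6.12 and 5.97 at 5.5 days and 1.02, 2.97, 0.539 and 1.97 at 8.5 days, where replicate 1 was below replicate 2 in each muscle. Ciart showed the same order, with 2.82 and 1.11 FPKM in EDL and SOL of replicate 1 and 4.40 and 3.23 in replicate 2 at 8.5 days, against 6.33 to 19.5 at 5.5 days (log2 fold change 2.12 ± 0.45). Tef measured 107 to 117 FPKM in all 4 libraries of 5.5 days, against 74.5 and 75.5 in EDL and 46.8 and 47.2 in SOL at 8.5 days. Dbp, the partner of Tef, overlapped in EDL muscles (61.9 and 72.4 against 50.3 and 68.6) and did not in SOL muscles (124.5 and 98.4 against 34.8 and 40.1). Cre+ muscles had 11 clock genes higher and 4 lower at 5.5 days, against 7.47% higher and 12.7% lower among all genes there. Arntl had -1.66, Npas2 -3.20 and Per2 2.41. The OSKM level differed between these days in Cre+ mice, so the Cre+ values are no replicate of the control comparison.

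**Figure D5:**
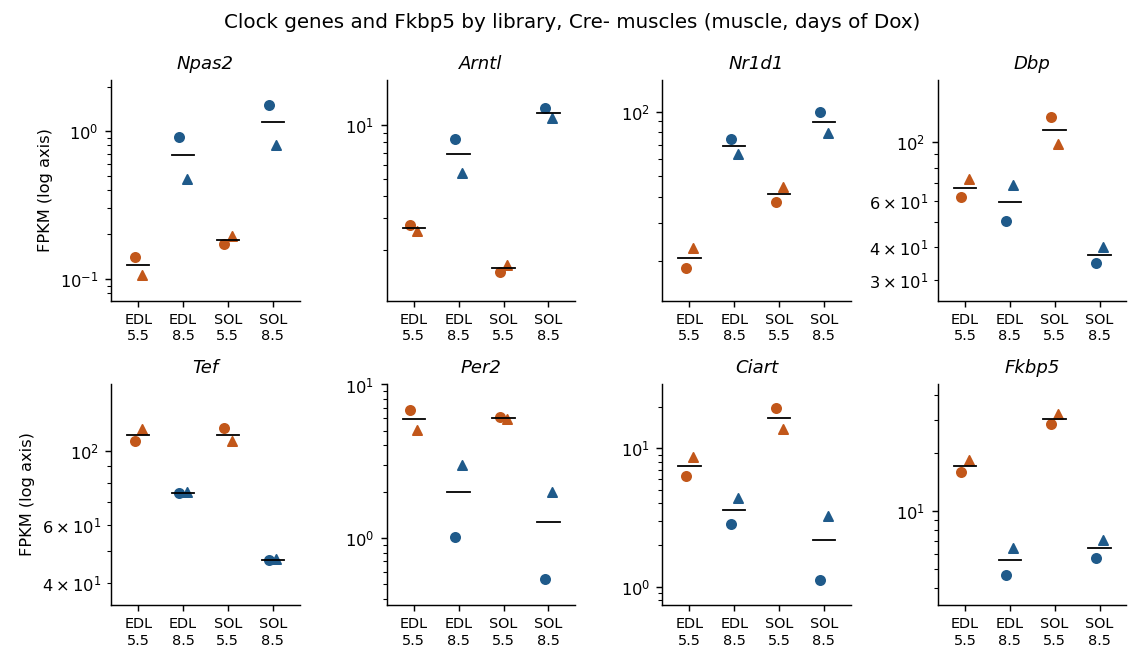
FPKM on a log axis of 7 clock genes and Fkbp5 in each Cre- library, by muscle and days of Dox; circles are replicate 1, triangles replicate 2, and the line is the mean of the 2. Npas2, Arntl and Nr1d1 lie lower at 5.5 days, Per2, Ciart, Tef and Fkbp5 lie higher, and Dbp overlaps in EDL.

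Genes that follow glucocorticoids and feeding also split. Of 20 genes 9 rose and 4 fell, against 3.7% higher and 12.5% lower among all genes, with a median of 0.48. Fkbp5, a chaperone induced through the glucocorticoid receptor, measured 16 and 18.5 FPKM in EDL and 28.3 and 32.1 in SOL at 5.5 days, against 4.68, 6.48, 5.75 and 7.09 at 8.5 days (log2 fold change 2.06 ± 0.17, edgeR adjusted p = 0.00017). Other glucocorticoid targets that rose were Tsc22d3 (0.81), Klf15 (0.89), Ddit4 (1.18) and the metallothioneins Mt1 (0.76) and Mt2 (0.79). Among those that fell were Angptl4 (-1.84) and Cpt1a (-0.72), targets of fatty acids and PPAR, and Cdkn1a (-0.56), and Txnip (0.43) did not pass. Without the replicate 1 or the replicate 2 pair of 5.5 days 7 and 6 genes passed. In Cre+ muscles Fkbp5 had 0.80 and did not pass (edgeR adjusted p = 0.18), and Angptl4 fell by 2.43.

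Stress and energy groups differed in how many members were called. The immediate early and glycolysis groups had a larger share of rises than the 3.7% of all genes, and 12.5% of all genes fell. Leaving out libraries moved these counts by several genes. They came to 2 of 21 immediate early genes without the replicate 2 pair of 5.5 days and 2 of 20 glycolysis genes without the replicate 1 pair. Of 21 immediate early genes 5 rose, among them Ier3 (1.06), Zfp36 (0.79) and Nr4a1 (0.72), and Egr3 fell (-1.16). Of 15 heat shock genes 1 rose, Cryab (0.52). Of 20 genes of the unfolded protein response Herpud1 rose (0.90) and the folding enzymes Pdia4 (-0.69) and Pdia3 (-0.59) fell, while Atf4 did not pass (0.20). Of 20 glycolysis and glycogen genes 5 rose, including Hk2 (0.77), the kinase subunit Phka1 (0.67) and the branching enzyme Gbe1 (0.57), and Pgm1 fell (-0.51), while Aldoa was at 0.46. None of 18 lipid oxidation genes passed, with Fabp3 at -0.13, and neither did Atp5b (0.11), Mb (0.30) or Tnnt3 (0.12). Casq2, the slow calsequestrin, was the 1 slow fibre gene that fell (-0.88), and without EDL replicate 1 of 8.5 days 7 slow fibre genes passed.

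Among called genes whose days did not overlap in either muscle and whose mean reached 1 FPKM, the 8 largest rises were AA465934, AI450353, Plet1os, Mylk4, Inmt, Gt(ROSA)26Sor, Ciart and Ifit3b. Mylk4, a kinase gene of striated muscle, measured 578 and 582 FPKM in EDL and 48.7 and 62 in SOL at 5.5 days, against 78.1, 85.8, 14.8 and 16.5 at 8.5 days (log2 fold change 2.46 ± 0.20), and it had 2.19 in Cre+ muscles. Inmt, a methyltransferase gene, rose by 2.25 from 3.51 to 7.69 FPKM to 19.1 to 33.2 and by 2.15 in Cre+ muscles. Plet1os, a noncoding transcript, rose by 2.58, with 11.3 to 17.2 FPKM at 5.5 days, and its 8.5-day replicates differed from each other, at 0.770 and 0.257 in replicate 1 against 5.99 and 3.25 in replicate 2. Of the 8 largest falls under the same limits, 7 were members of the liver group. The other was Gm2083, which held 1 to 10 counts at 5.5 days and 34 to 474 at 8.5 days. These 8 genes met the minimum count mainly through the 8.5-day libraries, so their ranks support no difference. Across all 14794 genes, which are not independent and whose EDL and SOL libraries may share mice, the EDL and SOL differences correlated with a Pearson r of 0.744.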

How the data were processed

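RNA-seq libraries of EDL and SOL muscles were analysed from the deposited table of raw counts per gene. The authors aligned the reads with STAR (2.5.3a) after FastQC (0.11.2) and counted them over RefSeq exons with HOMER, without normalization, and the strand setting is not given in the sources used here. The members and lists were chosen with earlier results of these data known.

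Counts were tested in edgeR (4.0.16, R 4.3.3) by the quasi-likelihood test with TMM normalization and filterByExpr (minimum count 10), with muscle and day as terms and Benjamini-Hochberg adjustment. Calls needed an adjusted p below 0.05 together with a log2 fold change beyond 0.5 in either direction. Fits with 1 mean per muscle and day gave EDL, SOL and their difference. On simulated data with 200 changed genes (log2 fold change 1) the main test recovered 171 and called 6 others. The simulation gave all genes the same spread and drew the libraries independently, so these figures do not carry over to the data. FPKM were computed from counts, exon length and total count.

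Named genes were the 3 most abundant and the 3 largest called members of each matrix, interferon, MHC and liver list, the most abundant and up to 3 called members of other lists, the 8 largest rises and the 8 largest falls at a mean level of 1 FPKM or more without overlap in either muscle, and the OSKM and sex-linked genes. Mest, Gt(ROSA)26Sor, Arntl, Nr1d1, Dbp, Gbp2, Alb, Pax7 and other members given with a fold change alone were named after their values were seen. Of the list symbols, 14 were not matched to the table. Deviations of EDL and SOL libraries of the same number and day correlated weakly, at 0.186 for 5.5 days and 0.213 for 8.5 days. Between days, the same numbers gave 0.107 in EDL and -0.0304 in SOL. Whether a number marks 1 mouse was not tested. Alternatives were DESeq2 (1.42.0), limma (3.58.1) voom, other size factors, filters and thresholds, all 24 libraries, the replicate number as a block, summed muscles and libraries left out.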

Additional observations from a re-analysis of the deposited data

How the results depend on the processing

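The count of 2390 genes was between 1764 and 2699 under other tools, size factors, low-count filters and replicate treatments. It was 2502 with DESeq2, 3600 with no limit on the fold change and 1041 with an absolute log2 fold change over 1. With library size alone it was 2699, with 287 higher and 2412 lower, and the median of all genes shifted to -0.135. The replicate number as a block gave 2419 genes, and a block of muscles with the same day and number gave 0 for the difference between muscles, where DESeq2 gave 30 and no filter on low counts gave 3. In the paired view with summed muscles 1764 genes passed in edgeR and 2060 in DESeq2.

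Leaving out libraries gave 912 to 2568 genes in both muscles together, 13 (without EDL replicate 2 of 5.5 days) to 1231 in EDL, 139 (without SOL replicate 1 of 5.5 days) to 1769 in SOL, and 0 to 1 for the difference between muscles. With a library or pair left out, the log2 fold change of some uncalled genes changed sign, with ranges of -0.14 to 0.86 for B2m, -0.0314 to 0.597 for Cd74, -0.21 to 0.23 for Egfl7, -0.42 to 0.16 for Fabp3, -0.0177 to 2.34 for Gbp2, -0.0147 to 0.56 for H2-D1, -0.61 to 0.12 for Hbb-b1, -0.17 to 0.37 for Ifi27, -0.0141 to 0.469 for Ifi27l2a, -0.0652 to 0.144 for Ifngr2, -0.49 to 4.44 for Iigp1, -0.0468 to 0.0666 for Jak1, -0.64 to 0.19 for Klf4, -0.217 to 0.0702 for Lamb2, -0.111 to 0.0629 for Pcna and -0.75 to 0.13 for Pmp22. Egfl7 also changed sign with DESeq2 (0.0122), median-of-ratios size factors (0.0073), no filter (0.0061), all 24 libraries (0.0041) and DESeq2 on summed muscles (0.0096). Library size alone turned Ifi27 (-0.0288), Ifngr2 (-0.1051), Jak1 (-0.1128), Tnnt3 (-0.0127) and Atp5b (-0.0167). The cause was not tested.

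With 2 libraries a muscle and day, and possibly 2 mice a day, differences carried by 1 replicate number cannot be told apart from differences between days. Counts of 3 or fewer set the limit for liver, neutrophil and proliferation genes at 5.5 days.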
